A study of Mus musculus with 32 samples.

Results

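Actin-based contractility and YAP signalling were followed through 9 mouse genes, Acta2, Tpm1, Tpm2, Myl9, Cald1, Vcl, Flna, Ccn1 and Ccn2, in lung organoid cultures exposed to fibroblast-derived factors. The genes were listed by name, as contractile genes of myofibroblasts and targets of YAP, with earlier results of these data already known. All 9 were found among the 11818 genes of the count table, and all 9 passed the filter on low counts in every comparison. The study mixed Epcam+ lung epithelial cells, depleted of CD45+ and CD31+ cells and freshly isolated from naive C57BL/6J mice of 8 to 14 weeks, 1:1 with CCL206 cells, an established fibroblast line from mouse lung that mitomycin C had kept from dividing. The co-cultures grew in Matrigel and received, for 72 h, vehicle, osteoglycin (OGN, 10 µg/mL), extracellular vesicles (EVs, 1000000000 particles/mL) or soluble factors (SFs, 30 µg/mL). EVs and SFs were purified from the medium of MRC5 cells, a human lung fibroblast line. Cells of 4 mice each entered all 4 treatments, and after the exposure every culture was separated with Epcam (CD326) beads into an Epcam+ and a CCL206 fraction, which gave 32 bulk RNA libraries in 8 groups of 4. The fibroblasts of all libraries came from 1 cell line, and p-values for this fraction measure the spread between co-cultures set up with the cells of different mice.

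Contractile cells slide actin along non-muscle or smooth muscle myosin, and the tension is carried to the substrate through adhesion plaques. Mechanical tension releases the co-activators YAP and TAZ from the Hippo kinases and the MRTF factors from monomeric actin, and these bind DNA through TEAD and SRF, respectively. In the lung, fibroblasts that build up this machinery and express smooth muscle actin are known as myofibroblasts, while alveolar epithelial cells use YAP during regeneration.

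Sequence around annotated transcript starts was taken from RefSeq (GRCm38.p6), in windows of 250 bases before to 50 after the start. For Flna and Tpm1 the bases before this start, and for Acta2 most of them, lie inside the span of the gene, which has another start further upstream. A window was matched for 8 of the 9 genes, all but Ccn2, a gene at chr10:24595442-24598683. The windows were searched on both strands for the TEAD motif GGAATG, which reads CATTCC on the other strand, and for the CArG box bound by SRF. Only the exact CArG form was searched, CC followed by 6 bases of A or T and then GG. Near matches were not counted, so a gene without a hit, Acta2 among them, may still hold a looser CArG box. The TEAD motif was present for 6 of 8 members (Acta2, Tpm1, Cald1, Vcl, Flna and Ccn1), for 4481 of the 27025 genes and in 14.7% of all 32851 windows. For Cald1 it lay in the first of 2 windows only. The CArG box in this exact form was present for 2 of 8 members (Myl9 and Vcl), for 488 of the 27025 genes and in 1.63% of all windows. These matches describe letters only, as no binding was measured. The sequences below belong to the genes whose windows held a motif, and capitals mark the motifs. The window of Tpm2 held neither motif and is not shown. Ccn1, Cald1 and Vcl are shown up to the last base before the span of the gene, and the other genes as the motif with 10 bases on each side. Motif positions count back from the transcript start of the window, which for Cald1 and Vcl lies a few bases inside that span, so the printed run ends short of it.
Ccn1, chr3:145649986-145650235, minus strand, TEAD motif from base -103: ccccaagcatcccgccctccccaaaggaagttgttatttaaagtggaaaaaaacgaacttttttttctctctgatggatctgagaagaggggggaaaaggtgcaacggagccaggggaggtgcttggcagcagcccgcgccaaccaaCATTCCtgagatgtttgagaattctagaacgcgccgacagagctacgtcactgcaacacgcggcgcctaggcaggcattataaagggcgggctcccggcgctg
Cald1, chr6:34598254-34598494, plus strand, TEAD motif from base -153: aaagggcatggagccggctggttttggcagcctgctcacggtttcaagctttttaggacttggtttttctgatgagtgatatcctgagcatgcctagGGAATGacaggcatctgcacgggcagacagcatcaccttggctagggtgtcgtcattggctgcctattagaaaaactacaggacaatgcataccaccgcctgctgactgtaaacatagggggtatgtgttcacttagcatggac
Vcl, chr14:20929148-20929382, plus strand, CArG box from base -227 and TEAD motif from base -143: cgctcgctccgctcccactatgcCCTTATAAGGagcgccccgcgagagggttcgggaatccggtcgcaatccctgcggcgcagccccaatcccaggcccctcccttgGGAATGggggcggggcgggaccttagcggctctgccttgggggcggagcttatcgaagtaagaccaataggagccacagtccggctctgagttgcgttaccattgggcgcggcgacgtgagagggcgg
Tpm1, chr9:67049254-67049279, minus strand, TEAD motif from base -56: gctgtcctaaGGAATGcggtcgcccc
Acta2, chr19:34255504-34255529, minus strand, TEAD motif from base -146: gcagaacagaGGAATGcagtggaaga
Flna, chrX:74246665-74246690, minus strand, TEAD motif from base -146: cgttgtggggCATTCCaacgggaggg
Myl9, chr2:156775293-156775322, plus strand, CArG box from base -161: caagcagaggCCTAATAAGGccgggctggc

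Library totals ranged from 1805914 to 17675454 counts, with a median of 5901652. In the CCL206 fraction, the EV-treated libraries of mice 2 and 4 stood apart from the others. Log2 levels were taken relative to the mean of the vehicle libraries of the fraction. With EVs these levels fell with transcript length, at Spearman correlations across genes of -0.287, -0.583, -0.364 and -0.623 for mice 1 to 4. In the other 12 libraries, which include the vehicle libraries themselves, the correlation was -0.244 to 0.188. Where leaving out the 2 libraries with the strongest trend, those of mice 2 and 4, changed a call of the 9 genes, both results are given below. The bead separation was partial. For each gene of the study's fibroblast signature (9 of its 10 genes were measured), the vehicle Epcam+ level was divided by the CCL206 level of the same culture. The median of these ratios over the genes was 21.5% ± 4.35 (SD, n = 4). Conversely, the median ratio of 8 epithelial markers, CCL206 level over Epcam+ level, was 5.64% ± 2.09 (SD, n = 4). In such bulk RNA, fewer cells of a type and less RNA per cell cannot be told apart.

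The levels of the 9 genes spanned a wide range, and the myofibroblast marker Acta2 was among the lowest. Per kilobase of transcript, and as TMM-normalised CPM, the count scaled to the depth of its library, averaged over the 4 vehicle libraries, the CCL206 cells held most Tpm1 (285 CPM per kb), the tropomyosin that stabilizes actin filaments, followed by Flna (132), the filamin that crosslinks them. Ccn1 (76.8), the secreted matricellular protein once named Cyr61, Vcl (73.7), the adhesion plaque protein vinculin, and Cald1 (71.8), the actin-binding regulator caldesmon, followed at levels per kb whose libraries overlapped. Tpm2, a second tropomyosin, was at 40.0 CPM per kb. Acta2, smooth muscle α-actin, and Myl9, the regulatory myosin light chain, reached only 8.10 and 7.30 CPM per kb, and Ccn2, formerly Ctgf, 2.93. In Epcam+ cells Tpm1 also ranked first (381 CPM per kb), before Ccn1 (127) and Flna (122), and the last places were held by Myl9 (4.08) and Acta2 (2.92). Of 8 markers of smooth muscle, Des and Smtn were analysed here, with vehicle levels in CCL206 cells of 13.7 ± 2.54 and 47.2 ± 3.46 CPM (SD, n = 4). Acta2 thus rested on 183 to 243 counts per vehicle CCL206 library, which limits its precision.

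In the order of the 8 group means of each gene, in CPM, few neighbouring groups were apart. This was counted for these genes only. Without the share over all genes, the counts do not set them apart from other genes. The libraries did not overlap at 3 of the 7 steps for Tpm2 and Cald1, at 2 for Tpm1 and Vcl, at 1 for Ccn1 and Ccn2 and at none for Acta2, Myl9 and Flna. For Ccn1 the step lay between OGN-treated Epcam+ cells, the highest group at 380 ± 47.7 CPM, and SF-treated Epcam+ cells at 259 ± 41.2 CPM (SD, n = 4). The lowest Ccn1 group was OGN-treated CCL206 cells, at 71.3 ± 16.7 CPM.

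**Figure D1:**
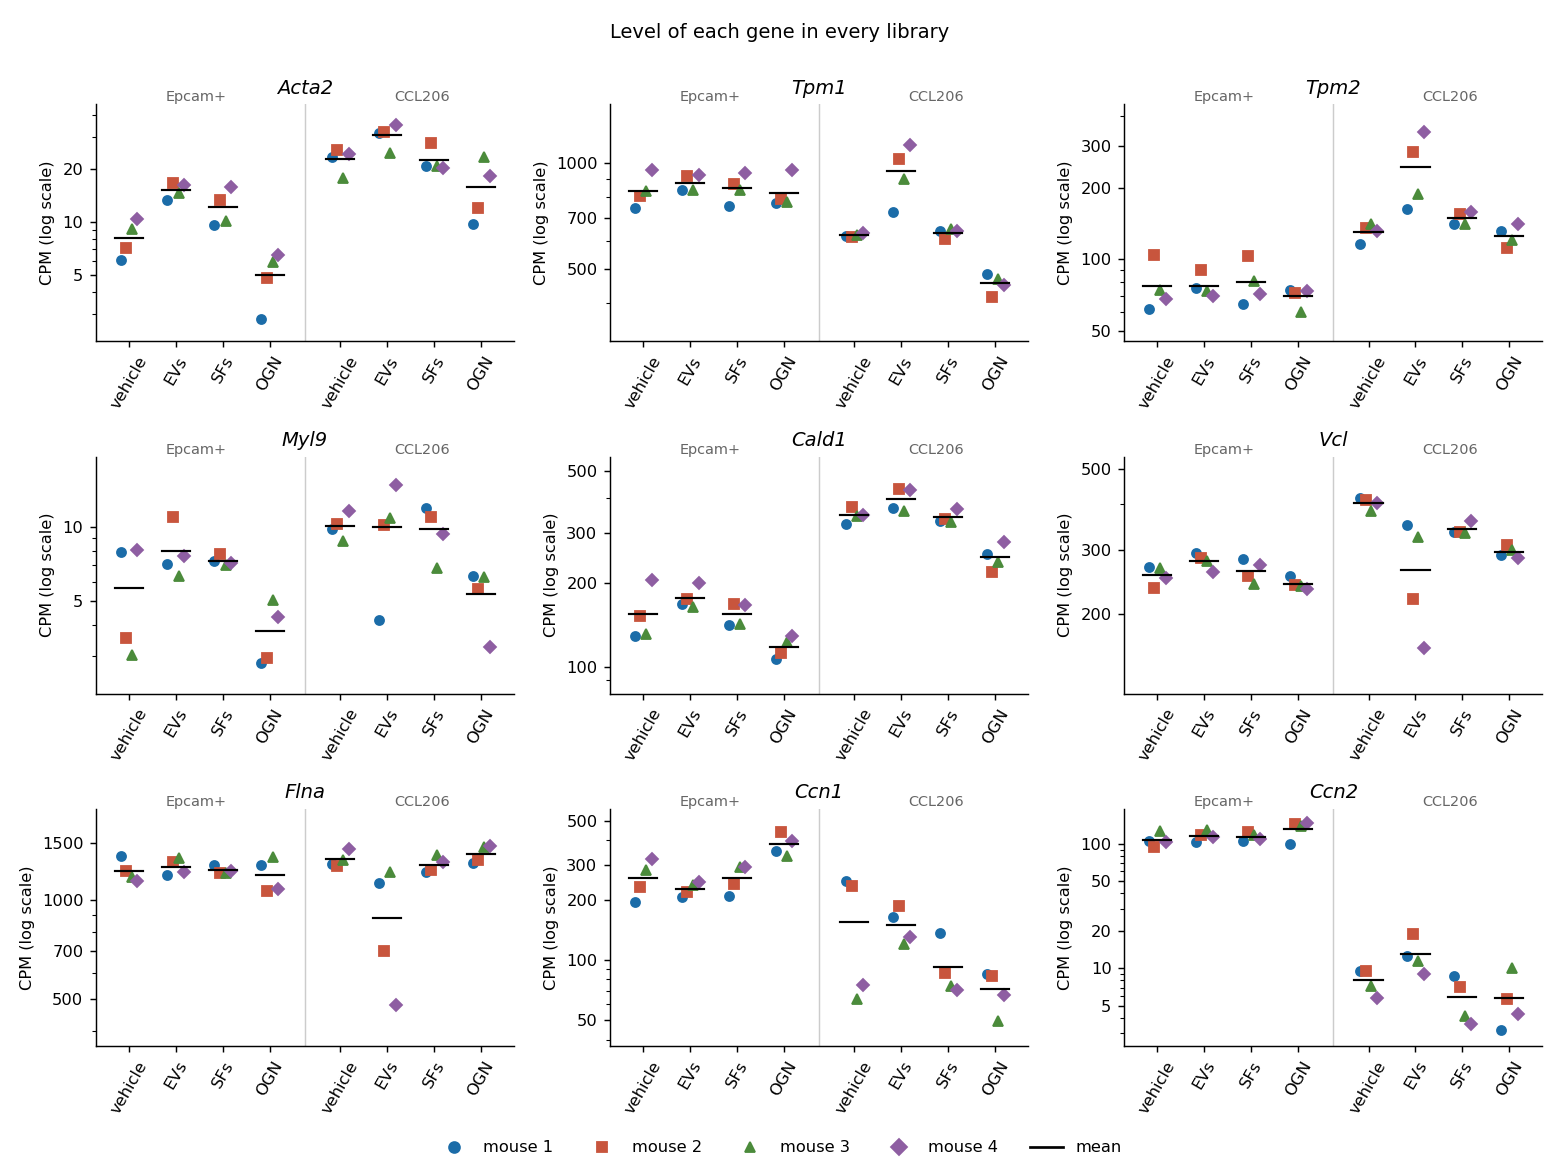
Levels of the 9 genes in CPM (log scale) in each of the 8 groups, one panel per gene, with 1 point per mouse and a bar at the group mean. Ccn2 sits at 94.23 to 126.8 CPM in vehicle Epcam+ cells and at 5.739 to 9.577 CPM in vehicle CCL206 cells, while neighbouring groups in the order of the Flna means overlap.

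To place the genes in either cell population, the vehicle libraries were compared within mice. CCL206 fibroblasts held more Acta2, Tpm2, Myl9, Cald1 and Vcl than Epcam+ cells, and less Tpm1, Ccn1 and Ccn2, so 8 of 9 differed (edgeR quasi-likelihood test, Benjamini-Hochberg adjusted p under 0.05). Across all genes tested, 71.4% differed in this comparison. The contractile gene with the widest gap was Acta2, at 23.25, 25.4, 17.59 and 24.05 CPM in CCL206 cells and 6.085, 7.075, 9.099 and 10.32 CPM in Epcam+ cells of mice 1 to 4. The ranges did not overlap, and the log2 difference was 1.5 ± 0.21 (SE, adjusted p = 7.08e-05). Cald1 differed by 1.2 (adjusted p = 1.3e-06), Tpm2 by 0.79 (adjusted p = 4.43e-05), Vcl by 0.66 (adjusted p = 6.64e-06) and Myl9 by 0.87 on the log2 scale (adjusted p = 0.0157). The Myl9 difference passed the threshold neither without mouse 2 (adjusted p = 0.0668) nor without mouse 3 (adjusted p = 0.079).

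Ccn2 showed the reverse distribution. Its vehicle levels were 105.2, 94.23, 126.8 and 103.8 CPM in Epcam+ cells and 9.51, 9.577, 7.166 and 5.739 CPM in CCL206 cells. Every Epcam+ library was thus above every CCL206 library, and the level in the CCL206 fraction was 13.6-fold lower (log2 difference -3.76 ± 0.16, SE, adjusted p = 8.71e-09). Vehicle CCL206 libraries held 7.6% ± 2.36 of the Epcam+ level of Ccn2, beside 5.64% ± 2.09 for the epithelial markers (SD, n = 4). The part of epithelial RNA in the Ccn2 values of CCL206 libraries, here and below, was not tested. Tpm1 was moderately lower in the fibroblasts as well (log2 difference -0.41, adjusted p = 0.000418). Ccn1 differed with less certainty, because its vehicle CCL206 libraries split. It reached 249.1 and 236.4 CPM in mice 1 and 2 but 63.66 and 74.81 CPM in mice 3 and 4, against 196.3, 231.9, 283.1 and 320.0 CPM in Epcam+ cells. The ranges overlapped and only 2 of 4 mice showed the direction of the fitted log2 difference of -0.94 ± 0.38 (SE, adjusted p = 0.0465), and without the pairing by mouse the adjusted p was 0.108. Flna did not pass the test (log2 difference 0.12, adjusted p = 0.17).

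The levels seen in the Epcam+ fraction can be set beside the fibroblast signature carried over into it. At the 21.5% given above for the signature, vehicle Epcam+ libraries held 37.2% ± 12.3 of the CCL206 level of Acta2, 44.2% ± 9.61 of Cald1, 54.9% ± 23.9 of Myl9, 58.7% ± 12.1 of Tpm2 and 63.4% ± 5.05 of Vcl (SD, n = 4 mice). Flna stood at 92.5% ± 11.2 and Tpm1 at 134% ± 12.7. Acta2 was therefore the gene whose share came closest to that of the signature. The Epcam+ fraction also held markers of basal and myoepithelial cells (3 of 6 listed genes measured), whose summed level in vehicle was 750 to 2150 CPM, against 7.12 to 11.7 CPM in CCL206 cells. The part of either cell type in the Epcam+ levels was not tested.

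To ask how OGN altered this programme in the fibroblasts, OGN-treated CCL206 cells were compared with vehicle. OGN lowered Tpm1, Cald1 and Ccn1, 3 of the 9 genes, while none rose; 4.56% of all genes tested were called in this comparison. The median log2 fold change of the 9 was -0.45, against -0.01 over all genes. Caldesmon gave the smallest adjusted p. Cald1 measured 253.2, 218.2, 237.6 and 279.3 CPM with OGN and 325.1, 372.3, 346.0 and 348.7 CPM with vehicle in mice 1 to 4. Each OGN library was below each vehicle library, by a log2 fold change of -0.50 ± 0.09 (SE, adjusted p = 0.00282). Tpm1 was very even in vehicle, at 621.1, 616.8, 624.5 and 633.3 CPM, and fell to 485.7, 416.2, 468.8 and 452.3 CPM with OGN. Here too the groups were apart (log2 fold change -0.45 ± 0.11, SE, adjusted p = 0.0268).

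Ccn1 fell in the fibroblasts of all 4 mice, but by unequal amounts. With OGN the levels were 85.22, 83.64, 49.58 and 66.86 CPM, against the split vehicle levels given above. The log2 differences were -1.54 and -1.5 in mice 1 and 2 and -0.36 and -0.16 in mice 3 and 4, and the groups overlapped. The fitted log2 fold change was -0.96 ± 0.23 (SE, adjusted p = 0.0234), or 1.95-fold lower. Without mouse 1 or mouse 2, the adjusted p was 0.186 or 0.243, and without pairing by mouse it was 0.0925. Leaving out mouse 2 also took Cald1 (adjusted p = 0.0735) out of the calls, and Tpm1 lost its call without mouse 2, 3 or 4 (adjusted p = 0.235, 0.146 and 0.0804).

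Vinculin and the myosin light chain had groups that were apart but did not pass the test. Vcl measured 289.9, 310.5, 300.5 and 284.8 CPM with OGN against 415.5, 412.5, 384.8 and 404.5 CPM with vehicle. These groups did not overlap and all 4 mice went down, yet the log2 fold change of -0.45 ± 0.16 (SE) had an adjusted p of 0.147. That fit shares its estimate of the spread with the EV-treated libraries, in which Vcl ranged from 161.9 to 350.9 CPM. Without the EV-treated libraries of mice 2 and 4 the adjusted p was 1.18e-05, and without all EV-treated libraries 1.15e-05. Myl9 was at 6.346, 5.592, 6.282 and 3.268 CPM with OGN and at 9.827, 10.27, 8.748 and 11.58 CPM with vehicle, again without overlap. Its log2 fold change was -0.90 ± 0.30 (SE, adjusted p = 0.119, and 0.0198 without the EV-treated libraries of mice 2 and 4). Both genes were thus called together with the other 3 once these libraries were left out, in a fit that called 13.8% of all genes.

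The remaining genes did not pass the test. Acta2 with OGN was at 9.746, 11.97, 23.34 and 18.22 CPM, lower than vehicle in 3 of 4 mice (log2 fold change -0.48, adjusted p = 0.323). Ccn2 was at 3.173, 5.671, 9.977 and 4.273 CPM (log2 fold change -0.40, adjusted p = 0.608), Tpm2 at 111.7 to 140.3 CPM (log2 fold change -0.06, adjusted p = 0.91) and Flna at 1298 to 1463 CPM (log2 fold change 0.05, adjusted p = 0.942). The summed fibroblast signature was 12100 to 13000 CPM with OGN and 11600 to 12900 CPM with vehicle. The summed epithelial markers were 371 to 713 CPM with OGN and 221 to 566 CPM with vehicle, and their part in the results was not tested.

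In Epcam+ cells OGN raised Ccn1 and lowered Cald1, 2 of the 9 genes, where 2.70% of all genes tested were called. Ccn1 reached 351.4, 439.8, 333.5 and 396.8 CPM with OGN. All 4 values were above the vehicle range of 196.3 to 320.0 CPM, with a log2 fold change of 0.58 ± 0.10 (SE, adjusted p = 0.000801), or 1.5-fold. Cald1 measured 107.1, 112.3, 122.7 and 128.6 CPM with OGN, just below the vehicle values of 129.4, 151.5, 131.2 and 204.2 CPM. Its log2 fold change of -0.36 ± 0.09 (SE, adjusted p = 0.0196) lost the call without the pairing by mouse (adjusted p = 0.151) and without mouse 1, 2 or 4 (adjusted p = 0.0952, 0.118 and 0.145). Acta2 was lower in all 4 mice, at 2.818, 4.795, 5.915 and 6.457 CPM, without passing the test (log2 fold change -0.70 ± 0.23, SE, adjusted p = 0.125). In the same libraries the summed fibroblast signature was 2050 to 2590 CPM with OGN and 2240 to 3110 CPM with vehicle, and the basal and myoepithelial markers summed to 395 to 1330 CPM with OGN and 750 to 2150 CPM with vehicle. The genes Cd68 and Lyz2, 2 of 8 listed as immune markers, stood higher with OGN, at a sum of 298 to 402 CPM against 185 to 253 CPM. The rest of that list, Ptprc among it, was not in the count table, so this sum does not identify immune cells. The part of any cell type in the Ccn1, Cald1 and Acta2 values was not tested.

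Ccn1 therefore moved in opposite directions in the 2 populations of the same cultures. The difference between the responses was itself tested, in a model of all 32 libraries with an interaction term. Ccn1 was the only one of the 9 genes to pass, with a log2 difference of -1.55 ± 0.27 (SE, adjusted p = 0.00231), where 0.551% of all genes tested passed. All 4 mice showed its sign, with differences of -2.38, -2.42, -0.60 and -0.47 in mice 1 to 4. Without mouse 1 or 2 the adjusted p was 0.0881 or 0.138, and without the pairing it was 0.0607. Without the EV-treated CCL206 libraries of mice 2 and 4, Tpm1 (log2 difference -0.43, adjusted p = 0.0113) and Vcl (log2 difference -0.35, adjusted p = 0.0282) passed as well. In that fit 1.42% of all genes passed. The other CCN gene, Ccn2, gave an interaction of -0.64 (adjusted p = 0.593). It was at 99.87, 144.2, 139.3 and 146.6 CPM in OGN-treated Epcam+ cells, against a vehicle range of 94.23 to 126.8 CPM (log2 fold change 0.28, adjusted p = 0.152).

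**Figure D2:**
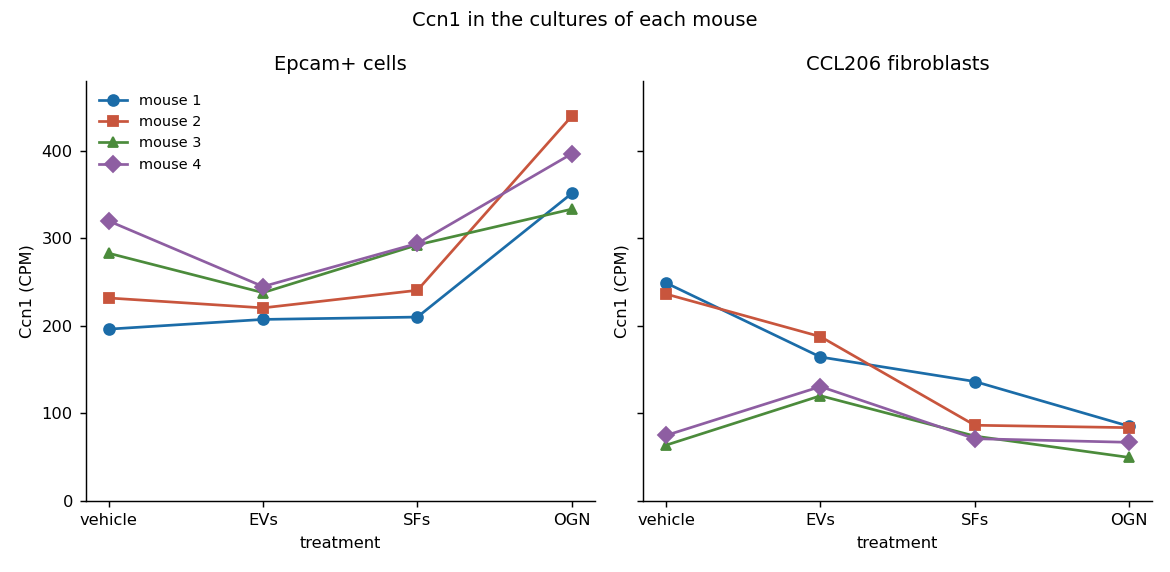
Ccn1 level in CPM (linear scale) under the 4 treatments in Epcam+ and CCL206 libraries, with 1 line per mouse. With OGN the Epcam+ levels lie at 333.5 to 439.8 CPM and the CCL206 levels at 49.58 to 85.22 CPM, and the vehicle CCL206 levels of mice 1 and 2 (249.1 and 236.4 CPM) lie apart from those of mice 3 and 4 (63.66 and 74.81 CPM).

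EVs changed the fibroblast levels of 4 of the 9 genes, raising both tropomyosins and lowering Vcl and Flna. In this comparison 36.0% of all genes tested were called. Tpm1 measured 729, 1030, 902.3 and 1130 CPM with EVs, all above the vehicle range of 616.8 to 633.3 CPM (log2 fold change 0.60 ± 0.11, SE, adjusted p = 0.00373). Tpm2 was at 162.8, 283.2, 188.4 and 345.2 CPM with EVs and at 116.2, 135.5, 140.4 and 131.6 CPM with vehicle, so its groups were apart as well (log2 fold change 0.87 ± 0.15, SE, adjusted p = 0.00322). For both tropomyosins mice 2 and 4 gave the highest EV levels. Vcl was at 350.9, 220.3, 326.0 and 161.9 CPM with EVs, below all vehicle libraries (log2 fold change -0.63 ± 0.16, SE, adjusted p = 0.0102). Flna was at 1130, 698.9, 1222 and 479.4 CPM with EVs against 1293, 1277, 1331 and 1436 CPM with vehicle (log2 fold change -0.63 ± 0.19, SE, adjusted p = 0.0202).

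The 2 genes that fell have the longest transcripts of the set, 5485 nt for Vcl and 10089 nt for Flna, and the EV-treated libraries of mice 2 and 4, which carried the strongest trend with length, held the lowest levels of both. The fibroblast signature was 7830 to 13000 CPM in the EV-treated libraries, against 11600 to 12900 CPM with vehicle. Mesenchymal markers (7 of 8 analysed here) summed to 7140 to 9050 against 6190 to 6730 CPM. The genes Msln and Krt19, 2 of 5 listed as mesothelial, summed to 164 to 358 against 102 to 154 CPM. Krt19 is also among the epithelial markers, and this sum was 2150 to 2280 CPM in vehicle Epcam+ cells. The epithelial markers summed to 403 to 664 CPM with EVs and 221 to 566 CPM with vehicle. The part of any cell type in the results was not tested. Without the EV-treated libraries of mice 2 and 4, in a fit that called 5.48% of all genes, Vcl gave a log2 fold change of -0.26 (adjusted p = 0.0568) and Flna of -0.19 (adjusted p = 0.129), so neither was called, while Tpm1 (log2 fold change 0.34, adjusted p = 0.0206) and Tpm2 (0.45, adjusted p = 0.0108) remained called at a smaller size. After the trend with length had been taken out of every library, the Flna log2 fold change was -0.07 (adjusted p = 0.587), whereas Vcl stayed lower, at -0.42 (adjusted p = 0.00967). Cald1, at 4848 nt, was at 371.3, 433.7, 360.7 and 428.6 CPM with EVs (log2 fold change 0.20, adjusted p = 0.0982) and reached a log2 fold change of 0.37 (adjusted p = 0.0139) with the trend taken out. When mouse 2 was left out altogether, only 0.162% of all genes were called and none of the 4, with log2 fold changes of 0.55 for Tpm1 (adjusted p = 0.0653) and 0.79 for Tpm2 (adjusted p = 0.0604) and adjusted p of 0.106 for Vcl and 0.152 for Flna. With only the EV and vehicle libraries in the fit, Tpm2 alone kept its call, with adjusted p of 0.0554 for Tpm1, 0.0613 for Vcl and 0.0853 for Flna. Without mouse 4, Vcl (adjusted p = 0.0612) and Flna (adjusted p = 0.104) were lost.

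**Figure D3:**
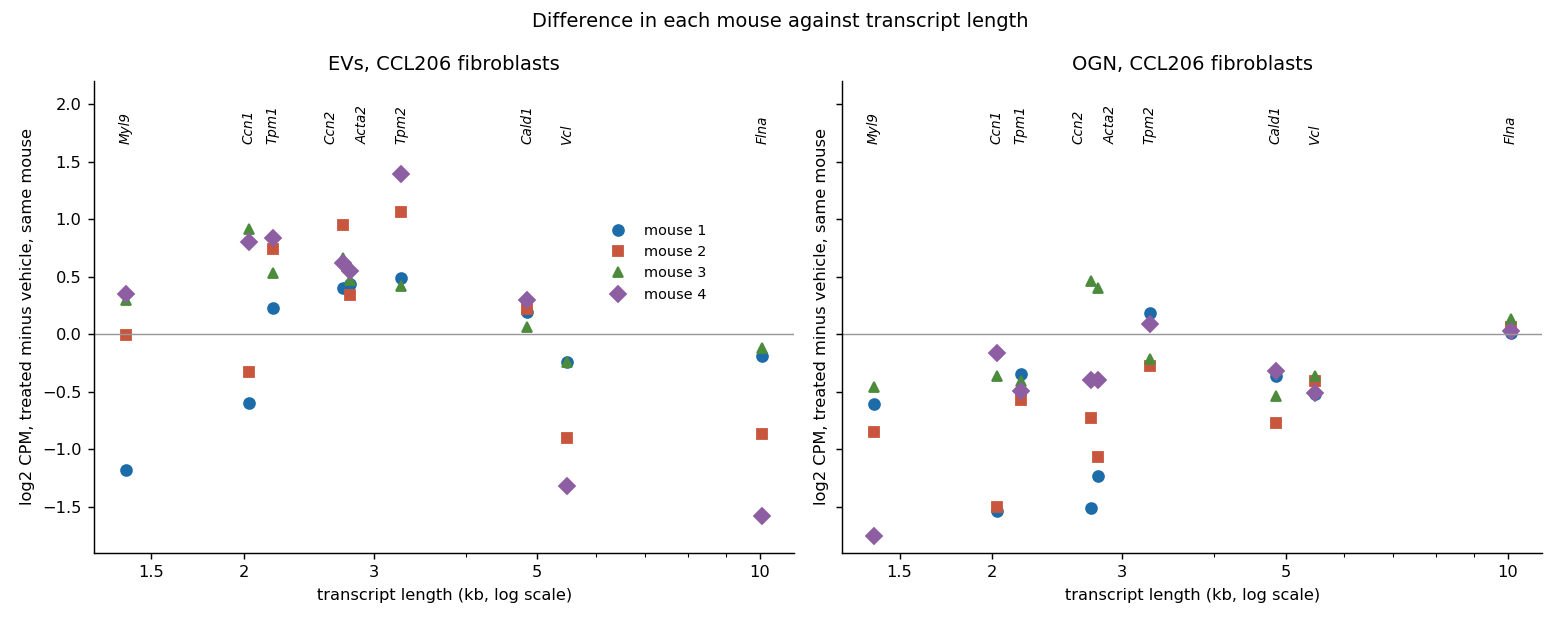
Log2 difference of each gene between treated and vehicle CCL206 cells of the same mouse, against transcript length in kb (log scale), for EVs on the left and OGN on the right, with 1 symbol per mouse. In the EV panel Vcl and Flna lie furthest down in mice 2 and 4 (Flna at -0.87 and -1.58), whereas in the OGN panel Vcl lies between -0.52 and -0.36 in all 4 mice.

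The other members of the set did not pass the test in EV-treated fibroblasts. Ccn2 was at 12.62, 18.77, 11.49 and 8.93 CPM, higher than vehicle in all 4 mice (log2 fold change 0.68, adjusted p = 0.0895), and Acta2 at 31.72, 32.3, 24.41 and 35.44 CPM, also higher in all 4 (log2 fold change 0.45, adjusted p = 0.134). Ccn1 (log2 fold change 0.14, adjusted p = 0.657) and Myl9 (log2 fold change 0.01, adjusted p = 0.985) went up in 2 mice and down in 2. The EV effects on Tpm1, Tpm2, Vcl and Flna differed between fibroblasts and Epcam+ cells in the interaction test (log2 difference 0.51, 0.83, -0.77 and -0.69, adjusted p = 0.00942, 0.00729, 0.0066 and 0.0247), where 23.8% of all genes passed. None of these 4 interactions passed without the EV-treated CCL206 libraries of mice 2 and 4.

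In Epcam+ cells EVs raised Acta2 alone, 1 of the 9 genes, where 0.888% of all genes tested were called. Its levels were 13.36, 16.67, 14.61 and 16.05 CPM, all above the vehicle range of 6.085 to 10.32 CPM, at 73 to 286 counts per library. The log2 fold change was 0.89 ± 0.21 (SE, adjusted p = 0.0395), or 1.85-fold. Without the pairing by mouse the adjusted p was 0.156, and leaving out 1 mouse at a time gave adjusted p between 0.0617 and 0.291. In the same Epcam+ libraries the summed fibroblast signature also stood higher, at 3160 to 3740 CPM with EVs against 2240 to 3110 CPM with vehicle, as did the pericyte markers analysed here (2 of 6 listed, Cspg4 and Notch3), at 64.7 to 78.6 against 40.2 to 50.3 CPM. Their part in the Acta2 result was not tested. Vcl was higher in all 4 mice by a small amount (log2 fold change 0.11, adjusted p = 0.66).

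SFs changed none of the 9 genes past the threshold in either population by edgeR. In Epcam+ cells 0.230% of all genes were called and 913 had an unadjusted p under 0.05, and in CCL206 cells 0.0599% and 621. Acta2 in SF-treated Epcam+ cells was at 9.654, 13.25, 10.14 and 15.66 CPM, higher than vehicle in all 4 mice (log2 fold change 0.56, adjusted p = 0.507). In CCL206 cells Vcl was at 336.2, 336.4, 334.6 and 360.0 CPM with SFs, below each of the 4 vehicle libraries. Its log2 fold change of -0.24 had an adjusted p of 1 with all 16 libraries and 0.0491 without the EV-treated ones. Ccn1 was at 136.4, 86.38, 73.98 and 71.01 CPM (log2 fold change -0.61, adjusted p = 0.789). With only the SF and vehicle libraries in the fit, the adjusted p was 0.0112 for Vcl and 0.024 for Ccn1. No interaction passed for SFs, where the share over all genes tested was 0% and 590 genes had an unadjusted p under 0.05.

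**Figure D4:**
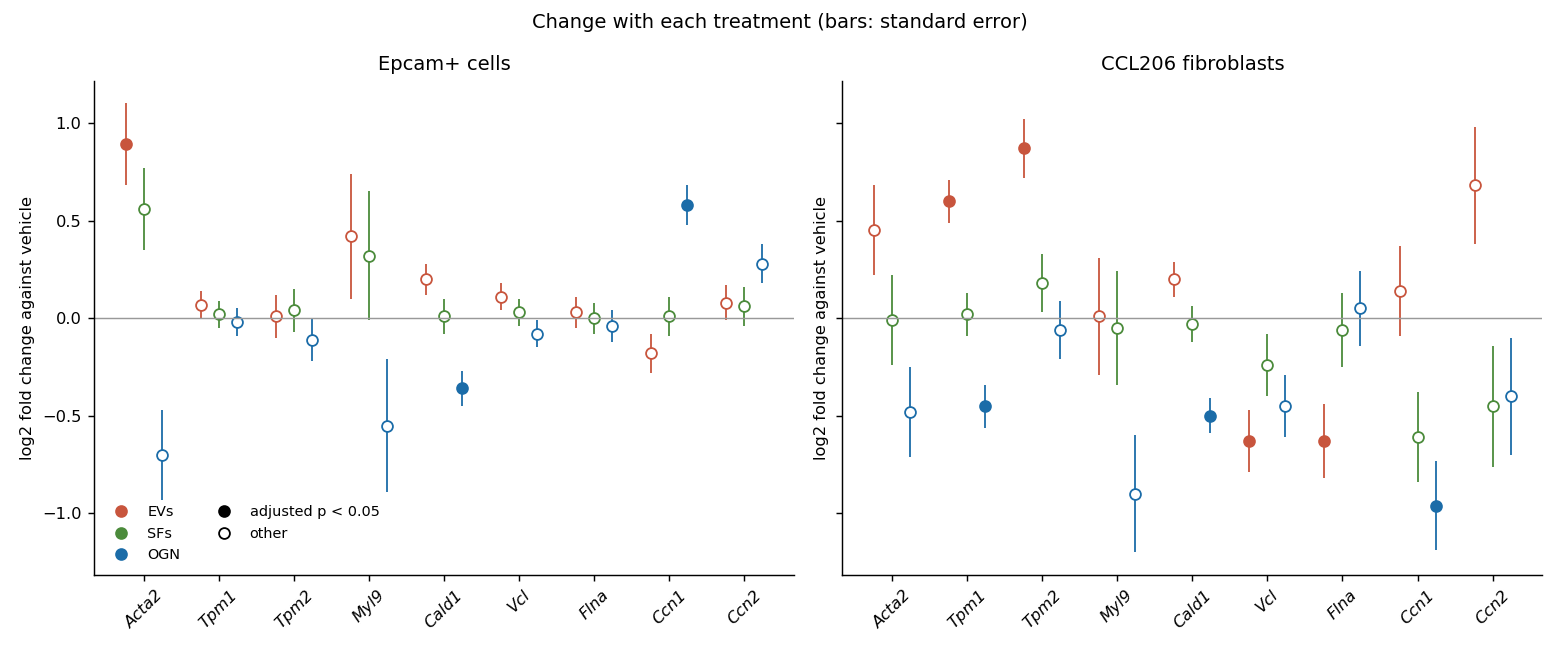
Log2 fold change against vehicle (points) with its SE (bars) for the 9 genes under OGN, EVs and SFs, in Epcam+ cells on the left and CCL206 cells on the right, with filled points for an adjusted p under 0.05. Ccn1 with OGN is filled on opposite sides of 0 (0.58 and -0.96), and in CCL206 cells Tpm1 is filled with OGN (-0.45) and with EVs (0.60).

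The treatments were then compared with each other. In Epcam+ cells OGN gave lower Acta2 and Cald1 and higher Ccn1 than EVs, with log2 differences of -1.59 ± 0.21, -0.56 ± 0.08 and 0.76 ± 0.10 (SE, adjusted p = 0.000104, 0.00038 and 6.57e-05), where 2.22% of all genes were called. Compared with SFs, the same 3 genes gave -1.26, -0.37 and 0.57 (adjusted p = 0.00344, 0.026 and 0.00268), where 1.91% of all genes were called. These comparisons share the OGN libraries. The differences from SFs were less firm, as Cald1 lost its call without all EV-treated libraries (adjusted p = 0.0582), without the pairing by mouse (0.184) and without mouse 1, 2 or 3 (0.159, 0.139 and 0.0688). Without mouse 1, Acta2 (adjusted p = 0.0582) and Ccn1 (adjusted p = 0.0537) were lost too, and Ccn1 without the pairing (adjusted p = 0.0515). EVs and SFs did not differ for any of the 9 in Epcam+ cells by edgeR (0.0256% of all genes called, 586 at an unadjusted p under 0.05). In fibroblasts, OGN against EVs changed all genes but Vcl, 8 of 9, where 37.6% of all genes were called. Acta2 (-0.93, adjusted p = 0.00817), Tpm1 (-1.06, adjusted p = 3.68e-05) and Ccn2 (-1.08, adjusted p = 0.0154) were among the 7 lower with OGN, and Flna was higher (log2 difference 0.69, adjusted p = 0.0131). Without the EV-treated libraries of mice 2 and 4, in a fit that called 13.2% of all genes, Acta2 (adjusted p = 0.0624), Myl9 (adjusted p = 0.299) and Ccn2 (adjusted p = 0.154) lost their calls. With the length trend taken out, Flna gave 0.17 (adjusted p = 0.138) and Myl9 an adjusted p of 0.207. Without mouse 2, Acta2 (0.0907), Myl9 (0.163), Flna (0.133) and Ccn2 (0.17) were lost, without mouse 4 Myl9 (0.268), Flna (0.0541) and Ccn2 (0.0662), and without mouse 3 Myl9 (0.0764).

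OGN against SFs lowered Tpm1 in fibroblasts (-0.48, adjusted p = 0.0293) and Cald1 (-0.47, adjusted p = 0.00774), where 2.79% of all genes were called. Both were lost without mouse 2 (adjusted p = 0.24 and 0.11) or mouse 3 (adjusted p = 0.199 and 0.091), and Tpm1 without mouse 4 (adjusted p = 0.0925). Without the EV-treated libraries of mice 2 and 4, Tpm2 (adjusted p = 0.0456), Myl9 (adjusted p = 0.0466) and Vcl (adjusted p = 0.0403) were also called lower. That fit called 9.82% of all genes. EVs against SFs called 5 genes, where 28.9% of all genes were called, with Tpm1, Tpm2, Ccn1 and Ccn2 higher and Flna lower. None of these 5 calls held without the EV-treated libraries of mice 2 and 4 (adjusted p = 0.0644, 0.191, 0.2, 0.262 and 0.402, where 0.756% of all genes were called). Without mouse 2, without mouse 4 and with only the libraries of EVs and SFs, the same comparison called 0 of all genes tested by edgeR, with 2810, 2801 and 3251 at an unadjusted p under 0.05.

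Other genes of the contractile and YAP pathways were followed in 7 lists, with 127 genes in the count table. In OGN-treated fibroblasts 13 of the 127 changed, 3 up and 10 down. This was 10.2% of the lists, against the 4.56% of all genes given above, and the median log2 fold change of the 127 was -0.08. Among cytoskeletal SRF targets 3 of 30 changed. Fhl2, a LIM-domain co-factor of SRF, fell (log2 fold change -0.90, adjusted p = 8.31e-05), as did calponin 2, Cnn2 (log2 fold change -0.47, adjusted p = 0.023), while the actin-binding transgelin 2, Tagln2, rose (log2 fold change 0.58, adjusted p = 0.000741). Of 23 adhesion plaque genes only the integrin chain Itga5 changed, upwards (log2 fold change 0.37, adjusted p = 0.0092), and of 7 SRF regulators none passed.

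YAP target genes beside Ccn1 and Ccn2 were mixed in OGN-treated fibroblasts, with 1 of 20 up and 2 down. Ankrd1, a widely used YAP target, was at 25.6, 24.9, 27.9 and 31.5 CPM with OGN and at 66.8, 72.6, 61.1 and 61.0 CPM with vehicle. All OGN libraries were far below all vehicle libraries (log2 fold change -1.26 ± 0.16, SE, adjusted p = 0.000133). Amotl2, which also restrains YAP, fell (log2 fold change -0.51, adjusted p = 0.0424), and Nt5e, the ecto-enzyme CD73, rose (log2 fold change 0.97, adjusted p = 0.0229). Of 25 Hippo pathway genes 2 fell, the TEAD co-factor Vgll3 (-0.76, adjusted p = 0.00314) and Amot (-0.66, adjusted p = 0.0344), and of 2 further CCN genes Ccn4 fell (log2 fold change -0.57, adjusted p = 0.0129). Without all EV-treated libraries, where 15.1% of all genes were called, 41 of the 127 genes (32.3%) were called, 12 up and 29 down, and 10 of the 20 YAP targets, 9 of them down. In Epcam+ cells OGN lowered 5 of the 127 genes (3.94%, against 2.70% of all genes), among them Ankrd1 (log2 fold change -0.95, adjusted p = 0.0119) and Amotl1 (log2 fold change -0.38, adjusted p = 0.00677), and raised none. Vehicle levels of Ankrd1 were 14.9 ± 4.54 CPM in Epcam+ and 65.3 ± 5.55 CPM in CCL206 libraries (SD, n = 4), and the part of fibroblast RNA in the Epcam+ result was not tested.

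With EVs, 55 of the 127 genes (43.3%, against 36.0% of all genes) were called in fibroblasts, 17 up and 38 down. Without the EV-treated libraries of mice 2 and 4 this was 12 (9.45%, against 5.48% of all genes), 3 up and 9 down. Mrtfb, an SRF co-activator, fell in both fits (log2 fold change -1.09, adjusted p = 0.00373, and -0.61, adjusted p = 0.00763). Ankrd1 rose with all libraries (log2 fold change 0.64, adjusted p = 0.00915) and gave 0.23 (adjusted p = 0.28) without those 2. In Epcam+ cells EVs raised the filamin Flnc (log2 fold change 0.52) as the only 1 of the 127. Over all genes, 0.888% were called in that comparison. Vehicle levels of Flnc were 49.2 to 75.3 CPM in Epcam+ and 298 to 371 CPM in CCL206 libraries. The part of fibroblast RNA in this result was not tested. SFs changed none of the 127 in either population, where 0.230% (Epcam+) and 0.0599% (CCL206) of all genes were called.

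Finally, the patterns of the genes over the 16 libraries of each population were described by Pearson's r after the mean of each mouse had been taken out. The points share mice and treatments, and the genes named have the highest r of all genes, so r is given without a test. In Epcam+ cells the mean of the 9 genes was most like the collagens Col5a2 (r = 0.966) and Col3a1 (r = 0.965), then Serpinb9b (r = 0.941), the gelatinase Mmp2 (r = 0.938) and the natriuretic peptide receptor Npr2 (r = 0.935). Col3a1 is among the mesenchymal markers and Mmp2 in the study's fibroblast signature. Each of these genes stood higher in vehicle CCL206 libraries, Col3a1 at 1160 to 1400 CPM against 257 to 387 CPM in vehicle Epcam+ libraries. The part of fibroblast RNA in the Epcam+ patterns was not tested. In CCL206 cells the mean of the 9 genes was most like Plau, the urokinase plasminogen activator (r = 0.964), Ces1f (r = 0.96), Dok1 (r = 0.95), Fhl2 (r = 0.946) and Ankrd1 (r = 0.941). Within the set, Acta2 and Cald1 went together in Epcam+ cells (r = 0.87), while Ccn1 ran opposite to both (r = -0.84 each). In CCL206 cells Tpm1 and Cald1 went together (r = 0.90, and 0.94 over the 12 libraries without EVs). Tpm2 and Flna ran opposite to each other (r = -0.94, and -0.75 without EVs), and the r of 0.83 between Vcl and Flna was 0.38 without EVs.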

How the data were processed

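Bulk RNA sequencing of 32 libraries (8 groups, 4 mice) was analysed. Per the labels and the study's methods, total RNA was sequenced on an Illumina platform and adapters were trimmed (Trimmomatic 0.30, in the submitters' processing notes). The aligner, the counting tool and its use of strand are not given in the sources used here, so reads shared by paralogs (actins, tropomyosins, myosin light chains) may be uncertain. The authors deposited 1 table of raw counts per gene, in which no gene listed has 0 counts in a library. The study's methods name GRCm38.p6 and the labels GRCm39, and the table holds no coordinates.

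Counts were tested with edgeR 4.0.16 in R 4.3.3 (TMM, filterByExpr, quasi-likelihood F test, Benjamini-Hochberg over all genes, called under 0.05), with mouse as a block and all 16 libraries of a population sharing 1 estimate of the spread. The vehicle populations were compared over 8 libraries and interactions over all 32. The labels give the mouse of every library. Libraries of the same mouse deviated together, with a mean r of 0.135 in Epcam+ and 0.107 in CCL206 cells, against -0.04 and -0.0358 between mice. Levels are TMM-normalised CPM, and transcript lengths (GENCODE) were found for 98.33% of genes. The code was tested on simulated data. DESeq2 1.42.0, RLE size factors, other filters, no block, fewer libraries, leaving out each mouse and a fit without the length trend were alternatives. The counts of list genes without EV-treated libraries were added after seeing the data.

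The members and lists were chosen with earlier results of these data known. Beside the 9 members, the text names from each list at most the 2 called genes with the smallest p in each direction, and the 5 genes most like the members' mean. The genes of 1 of the 7 lists are counted in the total of 127 but are not reported here. Low counts limit the precision for Acta2, Myl9 and Ccn2.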

Additional observations from a re-analysis of the deposited data

Results flagged for a closer look

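Within groups of 4 mice, 5 of the 72 sets of values (9 genes in 8 groups) held a library set apart from the other 3 by Dixon's criterion, which by chance marks about 1 in 20 groups. In SF-treated CCL206 cells, Acta2 was highest in mouse 2, at 27.91 CPM against 20.17 to 20.7 CPM, and Vcl in mouse 4, at 360.0 CPM against 334.6 to 336.4 CPM. In Epcam+ cells, Tpm1 was highest in mouse 4 with OGN, at 959.7 CPM against 771.2 to 790.4 CPM. Flna was highest in mouse 1 with SFs, at 1280 CPM against 1215 to 1226 CPM, and Ccn2 was lowest in mouse 1 with OGN, at 99.87 CPM against 139.3 to 146.6 CPM.

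Responses that differed between CCL206 fibroblasts and Epcam+ cells by the interaction test (edgeR) were, for OGN, Ccn1 at a log2 difference of -1.55, and for EVs, Tpm1 at 0.51, Tpm2 at 0.83, Vcl at -0.77 and Flna at -0.69.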

How the results depend on the processing

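Counts of called genes are out of 9 per comparison. Without the replicate block by mouse, the calls for EVs in Epcam+ cells went from 1 to 0, for OGN in Epcam+ cells from 2 to 1, and for the OGN interaction from 1 to 0. The block gave 3 and its absence 2 for OGN in CCL206 cells, and 6 and 4 over the 3 treatment pairs in Epcam+ cells. Without it, the shares of all genes called were 0.0768% (EVs) and 1.69% (OGN) in Epcam+ cells, 3.83% for OGN in CCL206 cells and 0.296% for the OGN interaction. Over the Epcam+ pairs they were 1.56% (OGN against EVs), 0.632% (OGN against SFs) and 0% (EVs against SFs). With only the libraries of the groups compared, the calls were 0 (EVs) and 1 (OGN) in Epcam+ cells and 1 (EVs), 2 (SFs) and 5 (OGN) in CCL206 cells, 2 for the EV interaction, 4 over the Epcam+ pairs and 10 over the CCL206 pairs (15 with all libraries). The shares of all genes were 0.761% (EVs) and 1.61% (OGN) in Epcam+ cells, 3.34% (EVs), 2.63% (SFs) and 11.7% (OGN) in CCL206 cells and 7.16% for the EV interaction. For OGN against EVs, OGN against SFs and EVs against SFs they were 1.87%, 0.667% and 0.0086% in Epcam+ cells. In CCL206 cells the same pairs gave 7.95%, 11.2% and 0%. Without the EV-treated CCL206 libraries of mice 2 and 4, the calls were 2 (EVs) and 5 (OGN) in CCL206 cells, 0 and 3 for the EV and OGN interactions, and 10 over the CCL206 pairs (5 for OGN against EVs, 5 for OGN against SFs and 0 for EVs against SFs). The shares of all genes, in the same order, were 5.48%, 13.8%, 0.279%, 1.42%, 13.2%, 9.82% and 0.756%. Without all EV-treated libraries, the calls were 1 (SFs) and 5 (OGN) in CCL206 cells and 3 for the OGN interaction, where 0.924%, 15.1% and 1.35% of all genes were called. With the length trend taken out, the calls were 5 for OGN in CCL206 cells and 2 for the OGN interaction, where 7.23% and 1.13% of all genes were called. With each mouse left out in turn, the counts in Epcam+ cells were 0 to 0 for EVs, 1 to 2 for OGN and 3 to 6 over the pairs. In CCL206 cells they were 0 to 4 for EVs, 0 to 3 for OGN and 4 to 16 over the pairs, with the lowest without mouse 2, and for the interactions 0 to 4 (EVs) and 0 to 1 (OGN). The shares of all genes called ranged as well, in CCL206 cells from 0.162% to 38.9% for EVs and from 2.02% to 3.51% for OGN. In Epcam+ cells they ranged from 0.145% to 1.33% for EVs and from 1.23% to 2.29% for OGN. The Epcam+ pairs gave 1.13% to 1.63% (OGN against EVs), 0.615% to 1.16% (OGN against SFs) and 0% to 0.017% (EVs against SFs). The same pairs in CCL206 cells gave 5.43% to 41.2%, 0.666% to 1.97% and 0% to 37.6%. For the EV and OGN interactions the shares were 2.21% to 25.2% and 0.136% to 0.398%. The vehicle comparison of the populations gave 6 to 8 calls, and with 1 mouse left out 64.5% to 68.7% of all genes were called. The only reversed direction was Flna between the vehicle populations, at a log2 difference of -0.23 (adjusted p = 0.013) with the length trend taken out. Except where a value above shows it, the cause of these changes was not tested. Of 1737 values of single genes under the alternatives, 1529 kept direction and side of the threshold. The lowest counts in a library were 16 for Acta2 and 11 for Myl9 in Epcam+ cells and 13 for Myl9 and 14 for Ccn2 in CCL206 cells, which limits their precision.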

Other observations

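Ccn1 in CCL206 cells was, over the 16 libraries with the mouse mean taken out, most like the immediate early gene Egr2 (r = 0.954) and the MAP kinase phosphatase Dusp5 (r = 0.945), both named after their values were seen. Egr2 showed the same split of the vehicle libraries, at 52.2 and 50.2 CPM in mice 1 and 2 and 11.0 and 15.1 CPM in mice 3 and 4, and was at 12.9, 14.3, 6.47 and 8.8 CPM with OGN. Dusp5 was at 43.2, 49.7, 23.9 and 24.6 CPM with vehicle in mice 1 to 4.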
